A study of Homo sapiens with 18 samples.

Results

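TXNIP, TSC22D3 and 8 further genes that respond to nutrient supply and growth factor signals were followed in 3 pancreatic cancer cell lines after knockdown of OFD1, a protein of centriolar satellites and of the ciliary base. The 10 genes (TXNIP, ARRDC3, ARRDC4, MLXIP, SLC2A3, TSC22D3, PIK3IP1, SESN1, SESN3 and KLF9) were taken by symbol from the 26668 gene symbols of the expression table. They were chosen by their known roles and because TXNIP, TSC22D3 and SLC2A3 stood among the largest rises in MIA PaCa-2, so the MIA PaCa-2 values below are a description and carry no test. The changes in PANC-1 and PaTu 8988T were not a reason for that choice and were tested, though earlier results of these data were already known.

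RNA-seq was done on 18 libraries, 3 control and 3 shOFD1 libraries of each of PANC-1, MIA PaCa-2 and PaTu 8988T, which are established human lines from pancreatic carcinomas. The knockdown cells carried a Tet-on shRNA against OFD1 and received doxycycline for 72 h. The labels call the controls untreated and wild type and their titles name shControl, whereas the study's methods describe the Tet-on-shOFD1 cells given DMSO, so the exact control could not be settled. Doxycycline was given to all knockdown libraries and to no control library, and its own effect and that of the shRNA cannot be told apart. The series text gives day 0 for the controls and day 3 for the knockdown, so time in culture may differ too. For PaTu 8988T, the source names of replicates 2 and 3 differ from the line's name, and the titles were followed. Nothing states that the replicates were separate cultures, so p-values measure the spread between these libraries, which may be technical.

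Expression was deposited as FPKM, a read count divided by the length of the gene and by the total of the library. Whole reads could be recovered from the values, and library sizes lay between 32486479 and 39797537 reads. MIA PaCa-2 control replicate 2 stood apart from the other controls of its line, with a chi-square of the counts 129 and 132 times its degrees of freedom, against 3.03 times between controls 1 and 3. Between the PaTu 8988T shOFD1 libraries the chi-square was 7.72 to 12.4 times its degrees of freedom. In both PANC-1 groups, the MIA PaCa-2 shOFD1 group and the PaTu 8988T controls it was at most 4.91 times. OFD1 itself was lower in every knockdown library than in every control library of its line. Its log2 fold change was -1.07 in PANC-1 (limma, adjusted p = 2.70e-06), -0.61 in MIA PaCa-2 and -1.10 in PaTu 8988T (limma, adjusted p = 5.47e-05). The MIA PaCa-2 controls had 3.09, 2.27 and 3.20 FPKM of OFD1, with the lowest value in control replicate 2. The length behind the FPKM of OFD1 was 4150 bases in PANC-1 and 9312 in the other lines. The epithelial keratin genes KRT8 and KRT18 were at 316.4 FPKM or more in all libraries. In MIA PaCa-2, EPCAM stayed at or below 0.0991 FPKM, CDH1 at or below 0.0321 FPKM and KRT7 at or below 1.21 FPKM. In PaTu 8988T, KRT19 stayed at or below 0.0194 FPKM, CDH1 at or below 0.378 FPKM and KRT7 at or below 0.478 FPKM. Of the leukocyte markers, CD3E was at 0 throughout, CD68 was at 9.77 to 71.1 FPKM over the 3 lines, and PTPRC reached 6.22 FPKM in MIA PaCa-2. The summed endothelial markers stayed at or below 0.233 FPKM. The sum of the 3 leukocyte markers, nearly all of it CD68, moved with knockdown, from 49.3 to 67.4 FPKM in the controls to 73.2 to 77.0 FPKM in MIA PaCa-2, from 32.0 to 37.7 down to 17.03 to 19.5 FPKM in PANC-1 and from 13.6 to 13.9 down to 9.77 to 11.7 FPKM in PaTu 8988T. The sum of the mesenchymal markers, nearly all of it VIM, went from 1399 to 1415 FPKM down to 789.8 to 812.5 FPKM in PANC-1, from 3480 to 3589 up to 4785 to 4975 FPKM in MIA PaCa-2, and from 771.1 to 803.6 down to 583.9 to 615.5 FPKM in PaTu 8988T. The epithelial sum went from 1616 to 2197 down to 1359 to 1392 FPKM in MIA PaCa-2 and from 1045 to 1069 down to 837.9 to 909.4 FPKM in PaTu 8988T. In PANC-1 this sum overlapped, although mean KRT8 went up from 420 to 504 FPKM and mean KRT19 down from 178 to 89.2 FPKM. The fibroblast sum went from 151.8 to 182.1 up to 204.5 to 205.2 FPKM in MIA PaCa-2 (COL1A2) and from 25.5 to 26.7 down to 22.4 to 23.3 FPKM in PANC-1 (COL1A1), and stayed at or below 0.119 FPKM in PaTu 8988T. The part of these markers in the results was not tested.

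The genes belong to a few connected circuits. MLXIP encodes MondoA, a transcription factor that, with its partner MLX, responds to glucose phosphates and induces TXNIP and ARRDC4 through a carbohydrate response element. TXNIP and ARRDC4, like ARRDC3, are arrestin-domain proteins. TXNIP binds thioredoxin and lowers glucose uptake by driving the internalization of glucose transporters, and SLC2A3 (GLUT3) is a high-affinity glucose transporter. When PI3K and AKT signalling is low, FOXO factors enter the nucleus and induce genes such as PIK3IP1, an inhibitor of PI3K, SESN3 and KLF9, while SESN1 and SESN3, together with SESN2, restrain mTORC1 when amino acids are scarce. TSC22D3 (GILZ) is a leucine zipper protein known as a target of the glucocorticoid receptor and of FOXO3, and KLF9 is another glucocorticoid-responsive transcription factor.

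The 3 stretches of promoter sequence below are shown because they hold letters that were searched for, in genes whose levels differed between conditions. They come from RefSeq (GRCh38.p14), run 5′ to 3′ on the gene's strand, lie before a RefSeq transcript start and overlap no annotated exon. The TSC22D3 stretch precedes the start of a shorter transcript and lies inside the span of the gene. Capitals mark the letters found. In TXNIP (chr1:145996608-145996727, minus strand) the first capitals are the FOXO letters GTAAACA, and the second run is a carbohydrate response element of the form CACGNG, 5 bases, CACGNG. In ARRDC4 (chr15:97960453-97960572, plus strand) the capitals are the E-box CACGTG. No carbohydrate response element of either form searched was found in ARRDC4. In TSC22D3 (chrX:107717150-107717269, minus strand) the capitals are the FOXO letters on the opposite strand.
TXNIP: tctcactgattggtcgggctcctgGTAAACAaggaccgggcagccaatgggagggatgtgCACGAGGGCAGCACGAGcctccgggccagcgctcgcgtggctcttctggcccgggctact
ARRDC4: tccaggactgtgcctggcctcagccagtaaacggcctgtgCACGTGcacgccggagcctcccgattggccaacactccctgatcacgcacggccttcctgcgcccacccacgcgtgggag
TSC22D3: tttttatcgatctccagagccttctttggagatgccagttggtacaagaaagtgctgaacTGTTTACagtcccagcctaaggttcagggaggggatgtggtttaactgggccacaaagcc

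Over windows of 250 bases before and 50 after each start, on both strands, 9 of the 10 genes had an entry, with 17 windows in all, and SLC2A3 had none. GTAAACA was found in 4 of the 17 windows, those of 4 genes (TXNIP, ARRDC3, PIK3IP1 and TSC22D3), and in 3.42% of all 35116 windows. CACGTG was found in 1 of the 17 windows, in ARRDC4, and in 7.26% of all windows. The glucocorticoid receptor letters AGAACA were found in 2 of the 17 windows, both of PIK3IP1, and in 14.8% of all windows. The pair CANGNG and CNCNTG with 5 bases between them was in none of the 17 windows and in 0.564% of all. The pair of CACGNG shown for TXNIP was searched after the TXNIP sequence had been seen, and 20 windows in all, or 0.057%, held it. No match overlapped another, apart from the E-box, which reads the same on both strands. These are matches of letters, and no binding was measured.

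Gene positions are given on GRCh38 in the GENCODE annotation. TXNIP lies on chromosome 1 (145992435 to 145996600, minus strand), ARRDC3 on chromosome 5 (91368724 to 91383359, minus), ARRDC4 on chromosome 15 (97960698 to 97973838, plus), and MLXIP on chromosome 12 (122078722 to 122147347, plus). SLC2A3 lies on chromosome 12 (7919230 to 7936275, minus), TSC22D3 on chromosome X (107713221 to 107777342, minus), and PIK3IP1 on chromosome 22 (31281593 to 31292534, minus). SESN1 lies on chromosome 6 (108986437 to 109094819, minus), SESN3 on chromosome 11 (95165513 to 95232541, minus), and KLF9 on chromosome 9 (70384597 to 70414624, minus). Whether reads were counted by strand was not given in the sources used here. For 5 of the genes, between 0.88% (SESN3) and 7.09% (SESN1) of the annotated exon bases were shared with a gene on the opposite strand, and reads from those bases cannot be assigned. SLC2A3 has a near-identical copy, SLC2A14, and 23.0% of its transcript's 50-base words also occur there. SLC2A14 had 0 to 4 reads in each library, against 173 to 14839 for SLC2A3.

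The 10 genes spanned a wide range of levels per length, and the order differed between lines. In the PANC-1 controls the mean levels ran from MLXIP (24.9 FPKM) through TSC22D3 (16.9), ARRDC3 (14.4), TXNIP (13.5), PIK3IP1 (5.23), ARRDC4 (3.14), SESN1 (3.05), KLF9 (2.86) and SLC2A3 (2.59) to SESN3 (0.0244 FPKM). ARRDC3 and TXNIP overlapped in that order, as did ARRDC4, SESN1 and KLF9, and KLF9 and SLC2A3. In the MIA PaCa-2 controls TXNIP (34.7 FPKM) and SLC2A3 (22.3) led, followed by MLXIP (11.5), ARRDC3 (6.46), KLF9 (2.03), SESN1 (1.55), TSC22D3 (0.745) and PIK3IP1 (0.527 FPKM). There KLF9 overlapped with SESN1, and TSC22D3 with PIK3IP1. In the PaTu 8988T controls TXNIP (24.1 FPKM) stood first, ARRDC3 (13.0) and MLXIP (12.6) overlapped, and SLC2A3 (4.42) and SESN1 (3.47) followed. The other 5 genes of PaTu 8988T had control means from 0.0909 (TSC22D3) to 0.678 FPKM (SESN3), where ARRDC4 and KLF9 overlapped. FPKM were compared between genes and conditions of a line and not between lines, because the gene lengths behind them differed for some genes, for TXNIP 3173 bases in PANC-1 and 3302 in the other lines.

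ARRDC4 and SESN3 were listed at 0 in all 6 MIA PaCa-2 libraries. In that line 6064 genes were listed at 0 throughout, 246 of them with a mean of at least 1 FPKM in PANC-1, and a listed 0 was not read as absence of expression.

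**Figure D1:**
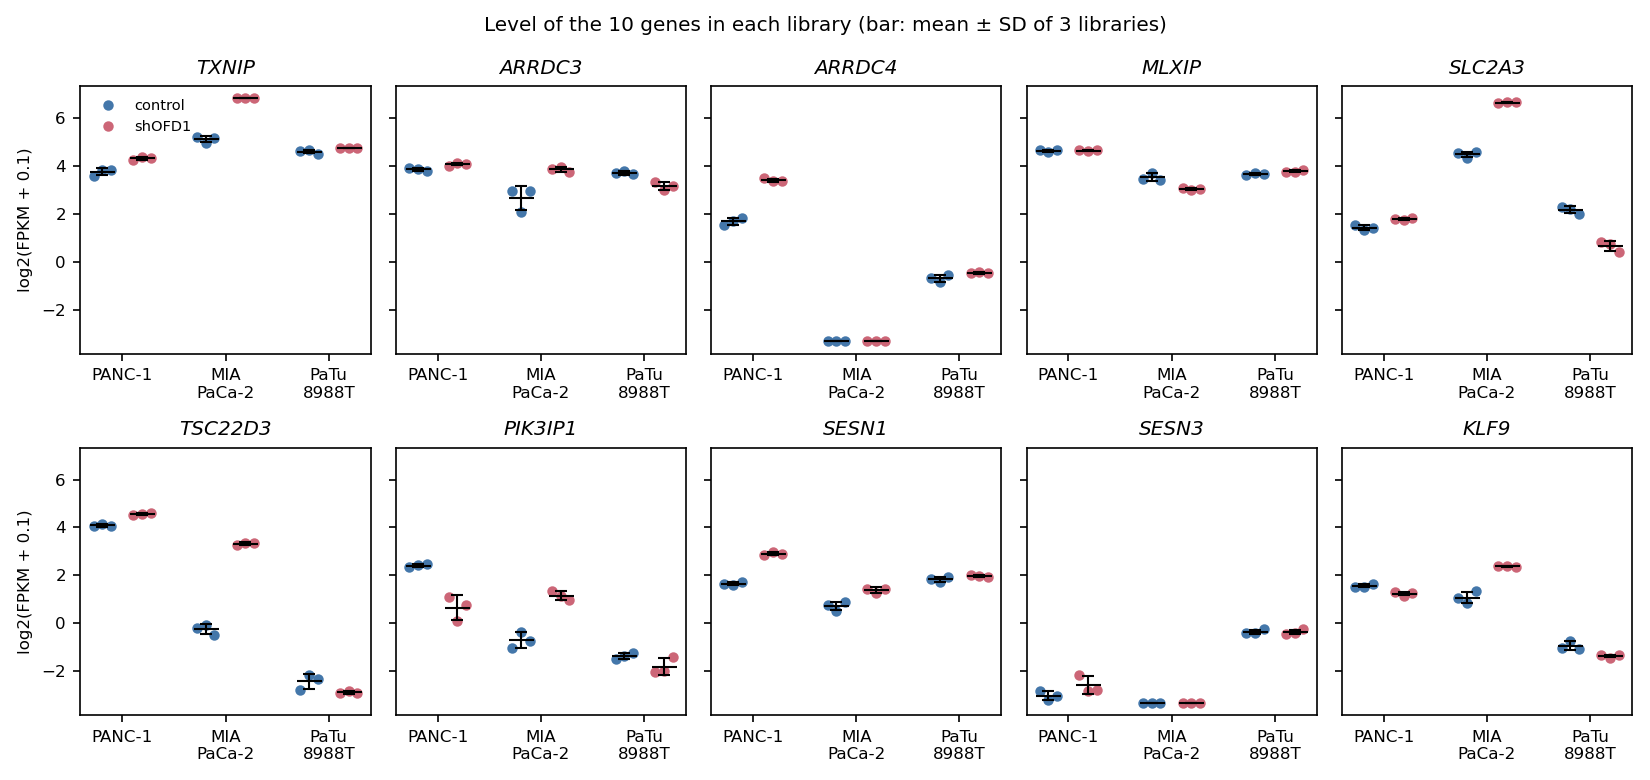
Level of each of the 10 genes, as log2(FPKM + 0.1) on the vertical axis, in the 3 control (blue) and 3 shOFD1 (red) libraries of PANC-1, MIA PaCa-2 and PaTu 8988T. Points are libraries and bars the mean ± SD on this scale; TSC22D3 and SLC2A3 separate most widely in MIA PaCa-2, SLC2A3 is lower in the knockdown libraries of PaTu 8988T, and the lowest row of points in ARRDC4 and SESN3 are values listed at 0.

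In MIA PaCa-2, TXNIP, SLC2A3, TSC22D3, PIK3IP1, KLF9, ARRDC3 and SESN1 were higher after OFD1 knockdown, whereas MLXIP was lower. Of the 8 genes with a mean of at least 1 FPKM, 7 were higher and 6 were more than 2-fold higher. Among all 10758 genes of this line at that level, 4.15% were more than 2-fold higher and 3.75% more than 2-fold lower. The median log2 fold change was 1.51 over the 8 genes and -0.03 over all genes. Since the genes were chosen on this contrast, nothing is read from these counts.

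TSC22D3 had 0.771, 0.846 and 0.617 FPKM in the MIA PaCa-2 controls and 9.56, 10.0 and 10.2 FPKM after knockdown. The groups lay far apart, with a ratio of means of 13.3 and a log2 fold change of 3.58, the sixth highest of the line. SLC2A3 had 23.0, 20.2 and 23.6 FPKM in the controls and 98.2, 101.3 and 101.2 FPKM after knockdown. Every knockdown library was more than 4-fold above every control library, with a log2 fold change of 2.17, rank 32 of 10758 genes. TXNIP had 37.0, 31.1 and 35.9 FPKM in the controls and 113.7, 113.8 and 113.3 FPKM after knockdown, a log2 fold change of 1.71 and rank 79. The knockdown libraries of TXNIP agreed closely with one another, with an SD of 0.248 FPKM.

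PIK3IP1 had 0.393, 0.681 and 0.507 FPKM in the MIA PaCa-2 controls and 2.46, 2.13 and 1.86 FPKM after knockdown, a log2 fold change of 1.86. It was counted with 38 to 236 reads in each library. KLF9 had 1.98, 1.69 and 2.41 FPKM against 5.16, 5.11 and 4.98 FPKM, a log2 fold change of 1.30. The groups of both genes were separate. SESN1 went from 1.58, 1.34 and 1.73 FPKM to 2.63, 2.31 and 2.63 FPKM, a log2 fold change of 0.68.

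ARRDC3, an adaptor for the ubiquitination of membrane receptors, had 7.69, 4.12 and 7.57 FPKM in the MIA PaCa-2 controls and 14.5, 15.5 and 13.4 FPKM after knockdown. Its low control value belongs to control replicate 2, the library that stood apart. The log2 fold change was 1.20 with this library and 0.91 without it, so that 5 rather than 6 of the genes were more than 2-fold higher. TXNIP kept a log2 fold change of 1.64 without that library. MLXIP had 10.7, 13.1 and 10.7 FPKM in the controls and 8.40, 8.0 and 8.01 FPKM after knockdown, a log2 fold change of -0.49, and its highest value was in the same control library.

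In PANC-1 the picture was mixed: ARRDC4 and SESN1 rose, PIK3IP1 fell, and the genes that led in MIA PaCa-2 differed by less than 2-fold. The test was limma on log2(FPKM + 0.1), with Benjamini-Hochberg adjustment over all genes of the line with a mean of at least 1 FPKM. A gene passed at an adjusted p below 0.05 with a fold change above 2 or below 0.5. Of the 9 genes at that level, 2 rose and 1 fell. Among all 10902 genes 1.75% rose and 4.84% fell. At an adjusted p below 0.05 alone, 6 of the 9 genes were higher and 2 lower, against 40.1% and 32.2% of all genes, so that such differences were common in this line. The median log2 fold change was 0.36 over the 9 genes and 0.06 over all genes.

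ARRDC4 had 2.78, 3.18 and 3.45 FPKM in the PANC-1 controls and 11.1, 10.2 and 10.3 FPKM after knockdown. All 3 knockdown libraries lay above 10 FPKM and no control library above 3.45, a log2 fold change of 1.72 (standard error 0.0821, limma, adjusted p = 3.96e-08). The change of ARRDC4 was the 28th highest of the line. TXNIP, the other gene of this group, had 11.9, 14.2 and 14.3 FPKM in the controls and 18.8, 20.7 and 20.2 FPKM after knockdown. The groups were separate, but the log2 fold change of TXNIP was 0.56 (standard error 0.0712, limma, adjusted p = 5.18e-05), below the fold limit. ARRDC3 had 13.8 to 15.0 FPKM in the controls and 16.1 to 17.2 FPKM after knockdown, a log2 fold change of 0.22 (limma, adjusted p = 0.00226).

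MLXIP had 25.3, 24.1 and 25.3 FPKM in the PANC-1 controls and 25.3, 24.5 and 24.97 FPKM after knockdown. The groups overlapped, and the difference on the log2 scale was 0.00, with a 95% interval from -0.08 to 0.08 (limma, adjusted p = 0.974). SLC2A3 had 2.79, 2.43 and 2.54 FPKM in the controls and 3.38, 3.22 and 3.47 FPKM after knockdown, a log2 fold change of 0.36 (limma, adjusted p = 0.00324). TSC22D3 had 16.6, 17.8 and 16.4 FPKM in the controls and 22.7, 23.8 and 24.2 FPKM after knockdown. Its log2 fold change was 0.48 (standard error 0.0455, limma, adjusted p = 6.55e-06), with separate groups and again below the fold limit.

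PIK3IP1 had 5.03, 5.23 and 5.41 FPKM in the PANC-1 controls and 2.05, 0.971 and 1.60 FPKM after knockdown. The groups were separate, with the widest spread among the knockdown libraries of the genes that passed, and the log2 fold change was -1.76 (standard error 0.205, limma, adjusted p = 2.96e-05). Its direction in PANC-1 was thus opposite to the description in MIA PaCa-2. In bulk RNA, a lower level in every cell and fewer cells with the transcript cannot be told apart. SESN1 had 3.00, 2.97 and 3.18 FPKM in the controls and 7.04, 7.73 and 7.36 FPKM after knockdown, and every knockdown library lay more than 2-fold above every control. The log2 fold change of SESN1 was 1.25 (standard error 0.0675, limma, adjusted p = 9.64e-08), rank 91 of 10902 genes.

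KLF9 had 2.78, 2.78 and 3.01 FPKM in the PANC-1 controls and 2.35, 2.13 and 2.29 FPKM after knockdown, a log2 fold change of -0.33 (limma, adjusted p = 0.00723). It too pointed the other way than in MIA PaCa-2, with separate groups in both lines. SESN3 lay below the filter, with 15, 3 and 8 reads in the controls and 41, 13 and 16 after knockdown. Without the filter, its adjusted p was 0.130 (limma).

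**Figure D2:**
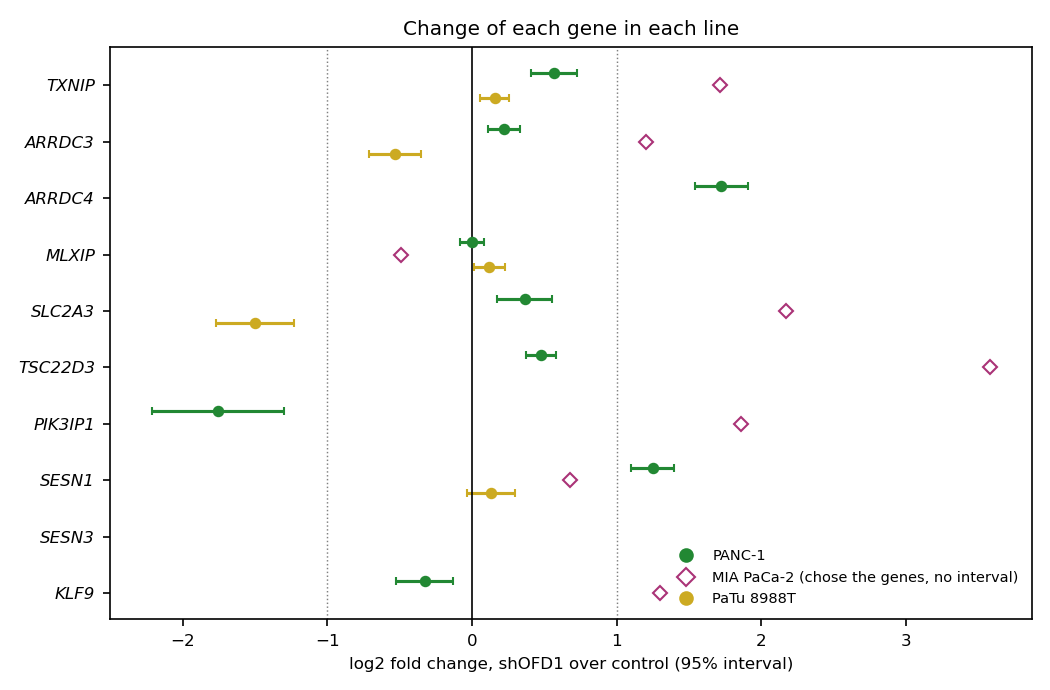
Log2 fold change of shOFD1 over control (horizontal axis) for each gene and line; dots with bars are limma estimates with 95% intervals in PANC-1 and PaTu 8988T, and open diamonds are MIA PaCa-2, where the genes were chosen. Dotted lines mark a 2-fold change; ARRDC4 (1.72) and SESN1 (1.25) lie beyond it upward and PIK3IP1 (-1.76) downward in PANC-1, and SLC2A3 (-1.502) downward in PaTu 8988T.

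In PaTu 8988T, SLC2A3 fell, and no gene of the group rose. Of the 5 genes with a mean of at least 1 FPKM, 0 passed upward and 1 downward by limma, and 2 were higher and 2 lower at an unadjusted p below 0.05, against 26.6% and 21.9% of all genes. Among all 10698 genes 0.159% rose and 0.841% fell. At an adjusted p below 0.05 alone, 1 of the 5 genes was higher and 2 were lower, against 20.9% and 18.5% of all genes. The median log2 fold change was 0.12 over the 5 genes and 0.03 over all genes.

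SLC2A3 had 4.85, 4.48 and 3.94 FPKM in the PaTu 8988T controls and 1.67, 1.60 and 1.24 FPKM after knockdown. All knockdown libraries lay below 0.5 of the lowest control, a log2 fold change of -1.502 (standard error 0.120, limma, adjusted p = 2.10e-05). Counted from the lowest, SLC2A3 stood at rank 10 of 10698 genes. It thus lay near the bottom of this line's changes and near the top of those in MIA PaCa-2. ARRDC3 had 12.8, 13.7 and 12.5 FPKM in the controls and 10.1, 7.98 and 8.91 FPKM after knockdown. The change on the log2 scale was -0.53 (standard error 0.0803, limma, adjusted p = 9.01e-04). The groups were separate, below the fold limit.

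TXNIP had 24.4, 25.1 and 22.8 FPKM in the PaTu 8988T controls and 26.6, 27.1 and 26.9 FPKM after knockdown. The difference was small, 0.16 on the log2 scale (limma, adjusted p = 0.0208, and between 0.0178 and 0.0800 over the alternative settings). MLXIP had a log2 fold change of 0.12 (95% interval 0.01 to 0.23, limma, adjusted p = 0.0763). SESN1 had 3.46, 3.22 and 3.74 FPKM in the controls and 3.91, 3.80 and 3.71 FPKM after knockdown, groups that overlapped. Its log2 fold change was 0.13, with a 95% interval from -0.04 to 0.30 (limma, adjusted p = 0.190).

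The other 5 genes lay below the filter in PaTu 8988T. TSC22D3, which led in MIA PaCa-2, had 6, 15 and 13 reads in the controls and 4, 5 and 4 after knockdown. At this depth no change of TSC22D3 could be shown (limma without the filter, adjusted p = 0.101). ARRDC4 had 65 to 92 reads, KLF9 49 to 92, PIK3IP1 13 to 30 and SESN3 227 to 275 reads over the 6 libraries. Without the filter, the adjusted p of these 4 genes in limma was lowest for KLF9, at 0.122.

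**Figure D3:**
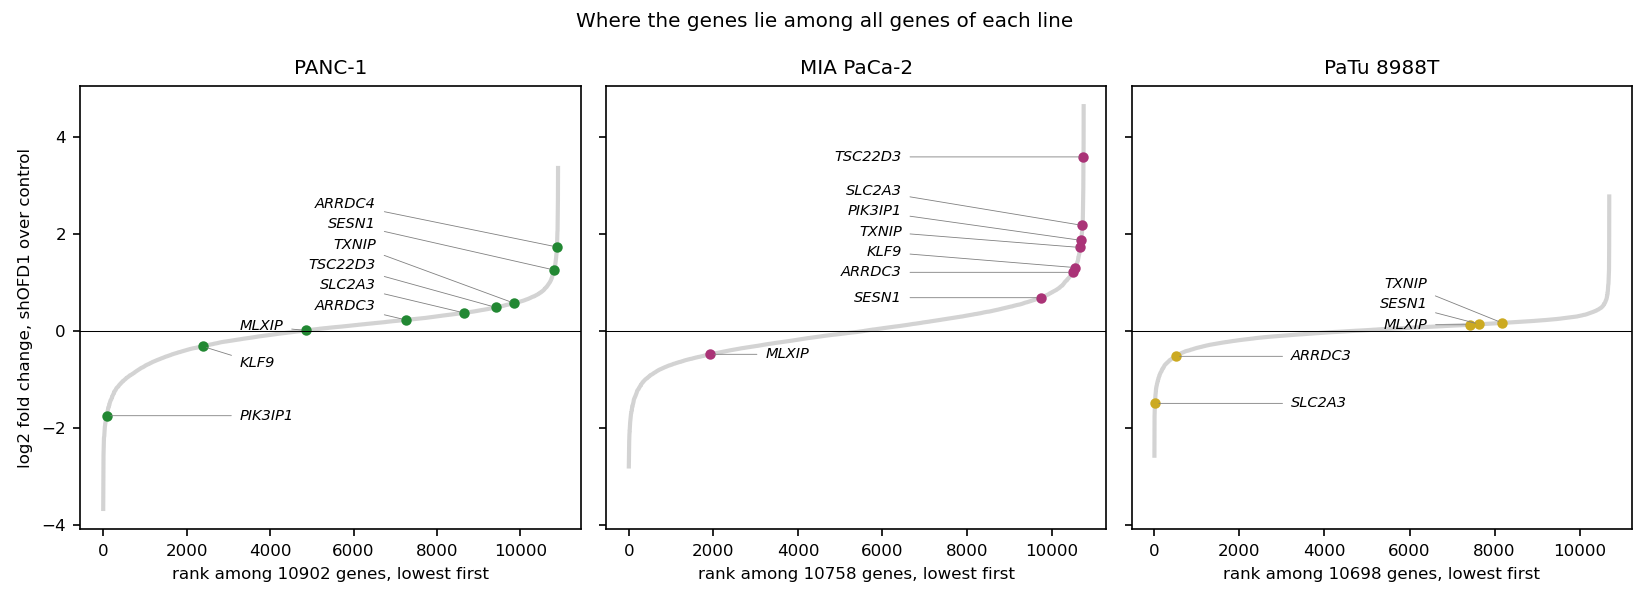
All genes with a mean of at least 1 FPKM in each line, ordered by log2 fold change of shOFD1 over control (grey line), with the tested genes of the group as dots. SLC2A3 lies at rank 32 from the top in MIA PaCa-2 and at rank 10 from the bottom in PaTu 8988T, and MLXIP lies near the middle in PANC-1.

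Whether a gene changed differently in PANC-1 and PaTu 8988T was tested by the interaction of line and knockdown in limma on the 12 libraries of both lines, over 9593 genes. For 4 of the 5 genes with a mean of at least 1 FPKM in both lines, the change in PANC-1 exceeded that in PaTu 8988T. Among all genes, 28.7% had a larger and 28.0% a smaller change in PANC-1 at an adjusted p below 0.05, so that a difference between these lines was common. SLC2A3 differed most, by 1.87 on the log2 scale (95% interval 1.55 to 2.18, limma, adjusted p = 5.52e-08). SESN1 differed by 1.12 (limma, adjusted p = 1.42e-07), ARRDC3 by 0.75 (limma, adjusted p = 1.22e-05) and TXNIP by 0.41 (limma, adjusted p = 0.00119). MLXIP differed by -0.12 (95% interval -0.25 to 0.01, limma, adjusted p = 0.107). MIA PaCa-2 did not enter this test.

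The genes around these circuits were taken as 9 lists with 114 genes, chosen with earlier results of these data known. The lists were the Mondo, MLX and MAX network, arrestin-domain and thioredoxin genes, hexose transporters and hexokinases, and FOXO factors and their known targets. The others were sestrin and mTORC1 genes, PI3K subunits and phosphatases, AMPK subunits, the TSC22 family with glucocorticoid receptor targets, and the KLF family. In PANC-1, 3 of 93 listed genes rose and 1 fell. In PaTu 8988T, 1 of 93 rose and 1 fell. In MIA PaCa-2, 11 of 92 were more than 2-fold higher and 1 more than 2-fold lower, without a test and with control replicate 2 included. For PANC-1 and PaTu 8988T these shares can be read beside the shares of all genes given above. The MIA PaCa-2 contrast chose the group, so nothing is read from its counts here.

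The sestrin and mTORC1 list held SESN2, the stress-induced sestrin, which rose in both tested lines. SESN2 had 13.3, 14.6 and 13.3 FPKM in the PANC-1 controls and 32.3, 32.5 and 32.0 FPKM after knockdown, a log2 fold change of 1.23 (limma, adjusted p = 6.34e-09). In PaTu 8988T it had 4.49, 4.59 and 5.17 FPKM in the controls and 10.6, 11.8 and 11.7 FPKM after knockdown, a log2 fold change of 1.24 (limma, adjusted p = 3.19e-06). Every knockdown library lay more than 2-fold above the control mean in both lines, and in MIA PaCa-2 the log2 fold change was 2.15. SESN1 passed in PANC-1 alone of the tested lines, and SESN3 was below the filter in all 3. DDIT4, another inhibitor of mTORC1, fell in PaTu 8988T from 283.5, 278.1 and 296.0 FPKM to 129.8, 148.0 and 143.1 FPKM, a log2 fold change of -1.03 (limma, adjusted p = 1.81e-06). Without PaTu 8988T shOFD1 replicate 1 it was -0.97 and no longer past the fold limit. DDIT4 had a log2 fold change of -0.27 in PANC-1 (limma, adjusted p = 5.05e-06). In MIA PaCa-2 DDIT4 had 91.4, 159.9 and 89.5 FPKM in the controls and 202.0, 195.6 and 197.7 FPKM after knockdown, a log2 fold change of 0.86. All knockdown libraries lay above all controls. The highest control value belongs to control replicate 2, the library that stood apart. The median of this list was 0.18 in PANC-1, where 22 other genes did not pass, and 0.06 in PaTu 8988T.

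Among the FOXO factors and targets, FBXO32, a ubiquitin ligase subunit of muscle wasting, fell in PANC-1 from 4.41, 4.57 and 4.99 FPKM to 2.28, 1.66 and 1.58 FPKM, a log2 fold change of -1.31 (limma, adjusted p = 8.47e-06). The 15 other tested genes of the list did not pass there, and none of 13 passed in PaTu 8988T, where 2 were higher and 6 lower at an unadjusted p below 0.05 in limma (26.6% and 21.9% of all genes). In MIA PaCa-2, BCL6, CCNG2, GADD45A and CITED2 were more than 2-fold higher. Of the 10 tested genes of the TSC22 family and glucocorticoid receptor targets, 2 rose in PANC-1 and 0 fell, with a list median of 0.15. At an unadjusted p below 0.05 in limma, 5 of the 10 were higher and 2 lower there, against 41.4% and 32.9% of all genes. SGK1, a kinase of ion transport, rose in PANC-1 from 8.59, 9.05 and 9.93 FPKM to 23.0, 23.2 and 26.8 FPKM, a log2 fold change of 1.39 (limma, adjusted p = 6.53e-08). CEBPD, a transcription factor of the acute phase response, rose there from 12.2, 14.2 and 13.6 FPKM to 33.8, 32.4 and 31.2 FPKM, a log2 fold change of 1.28 (limma, adjusted p = 3.03e-08). Neither passed in PaTu 8988T, where SGK1 had a log2 fold change of 0.82 and CEBPD of 0.48, and 0 of the list's 10 tested genes passed, with 4 higher and 4 lower at an unadjusted p below 0.05 in limma (26.6% and 21.9% of all genes).

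None of the tested genes of the other 6 lists passed in PANC-1 or PaTu 8988T by limma at the same threshold. At an unadjusted p below 0.05, 19 of their 44 tested genes were higher and 15 lower in PANC-1, against 41.4% and 32.9% of all genes. In PaTu 8988T, 18 of 48 were higher and 17 lower, against 26.6% and 21.9% of all genes. At an adjusted p below 0.05 alone, 71 of the 93 listed genes of PANC-1 differed, 45 higher and 26 lower, against 40.1% and 32.2% of all genes. In PaTu 8988T, 48 of 93 differed at that limit, 21 higher and 27 lower, against 20.9% and 18.5% of all genes. MLXIPL, the paralog of MLXIP known as ChREBP, lay below 1 FPKM on average in PANC-1 and PaTu 8988T, and had a log2 fold change of 0.59 in MIA PaCa-2. Of the hexose transporters and hexokinases, HK2 and HKDC1 were more than 2-fold higher in MIA PaCa-2. HK2 had a log2 fold change of 1.18 there, 0.99 in PANC-1, just short of the fold limit, and -0.70 in PaTu 8988T. The list's median was 0.66 in MIA PaCa-2, -0.27 in PANC-1 and -0.21 in PaTu 8988T. In the wider Mondo, MLX and MAX network, MXI1 was more than 2-fold higher and MXD3 more than 2-fold lower in MIA PaCa-2. There CASTOR1, INPP4B and CEBPD of other lists also passed 2-fold upward.

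**Figure D4:**
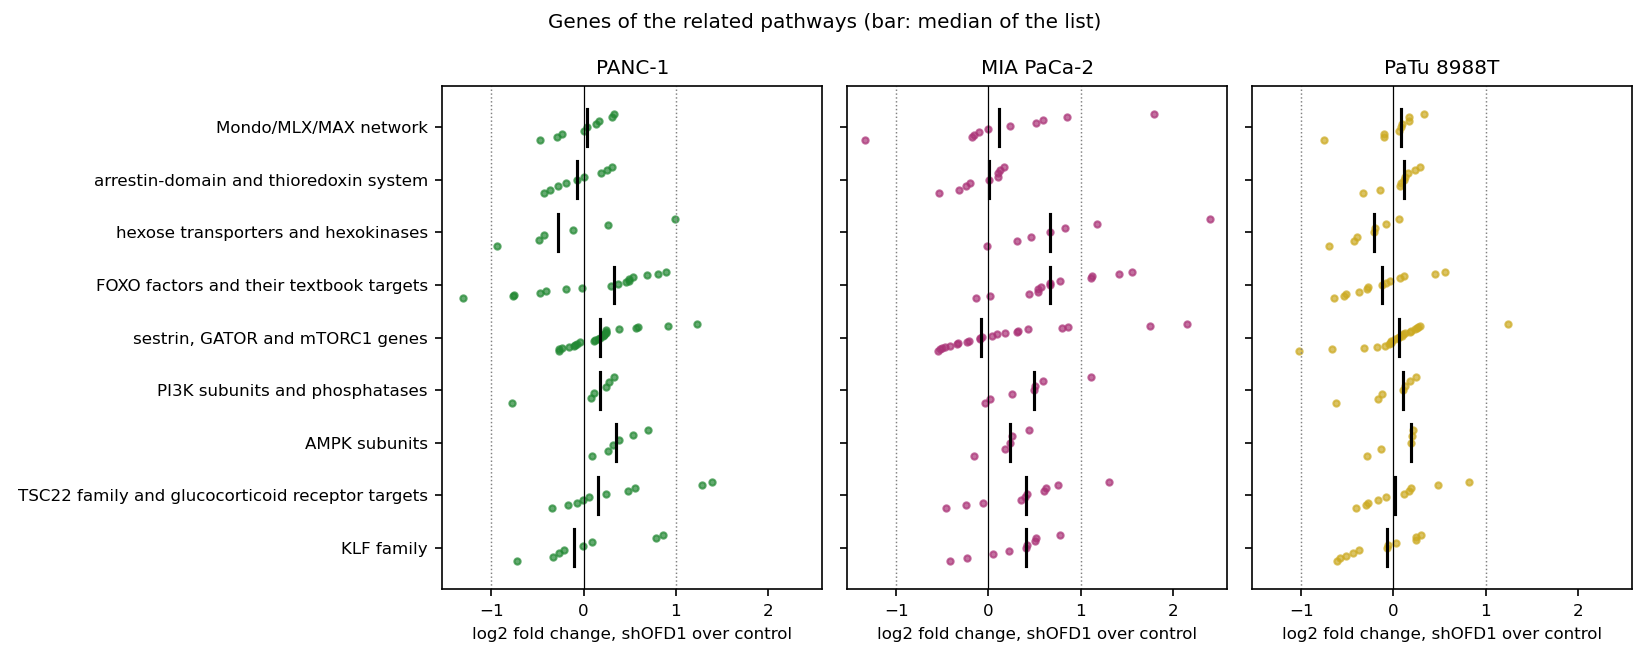
Log2 fold change of shOFD1 over control (horizontal axis) for each tested gene of the 9 lists in each line; dots are genes, black bars the median of a list and dotted lines a 2-fold change. SESN2 is the sestrin-list dot beyond the right dotted line in PANC-1 (1.23) and PaTu 8988T (1.24), and the hexose transporter medians lie above 0 in MIA PaCa-2 and below 0 in the other lines.

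The genes whose pattern was most like each of the leading genes were named by Pearson correlation of log2 deviations from the mean of the line's control libraries. The libraries of a group share their line and condition, and the 3 MIA PaCa-2 knockdown libraries set most of each value, so the correlations are descriptions. For TXNIP, over 18 libraries and 9083 genes, these were COL3A1 (0.993), a chain of fibrillar collagen, TP53INP1 (0.986), a p53-induced stress gene, PAM (0.986), LPIN2 (0.982) and HADHA (0.982), an enzyme of mitochondrial fatty acid oxidation. COL3A1 had a log2 fold change of 0.80 in PANC-1, 2.23 in MIA PaCa-2 and 0.14 in PaTu 8988T. For SLC2A3, over the same libraries, they were FUT11 (0.987), ERMP1 (0.984), BTN3A1 (0.982), NOL4L (0.976) and MIDEAS (0.973). The PaTu 8988T knockdown libraries, where SLC2A3 deviated by -1.35 to -1.75, also weighed on these values. These genes were all higher in MIA PaCa-2 and lower in PaTu 8988T, as follows from their choice by likeness to SLC2A3. FUT11 had log2 fold changes of 0.93 and -0.54 in these 2 lines. For TSC22D3, over the 12 libraries of PANC-1 and MIA PaCa-2, they were BTG1 (0.997), an antiproliferative gene, PGM1 (0.995), an enzyme that links glycogen and glycolysis, IRAK2 (0.994), FAM162A (0.994) and DNTTIP1 (0.994). IRAK2, a kinase of interleukin-1 signalling, had a log2 fold change of 0.48 in PANC-1 and 2.82 in MIA PaCa-2.

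**Figure D5:**
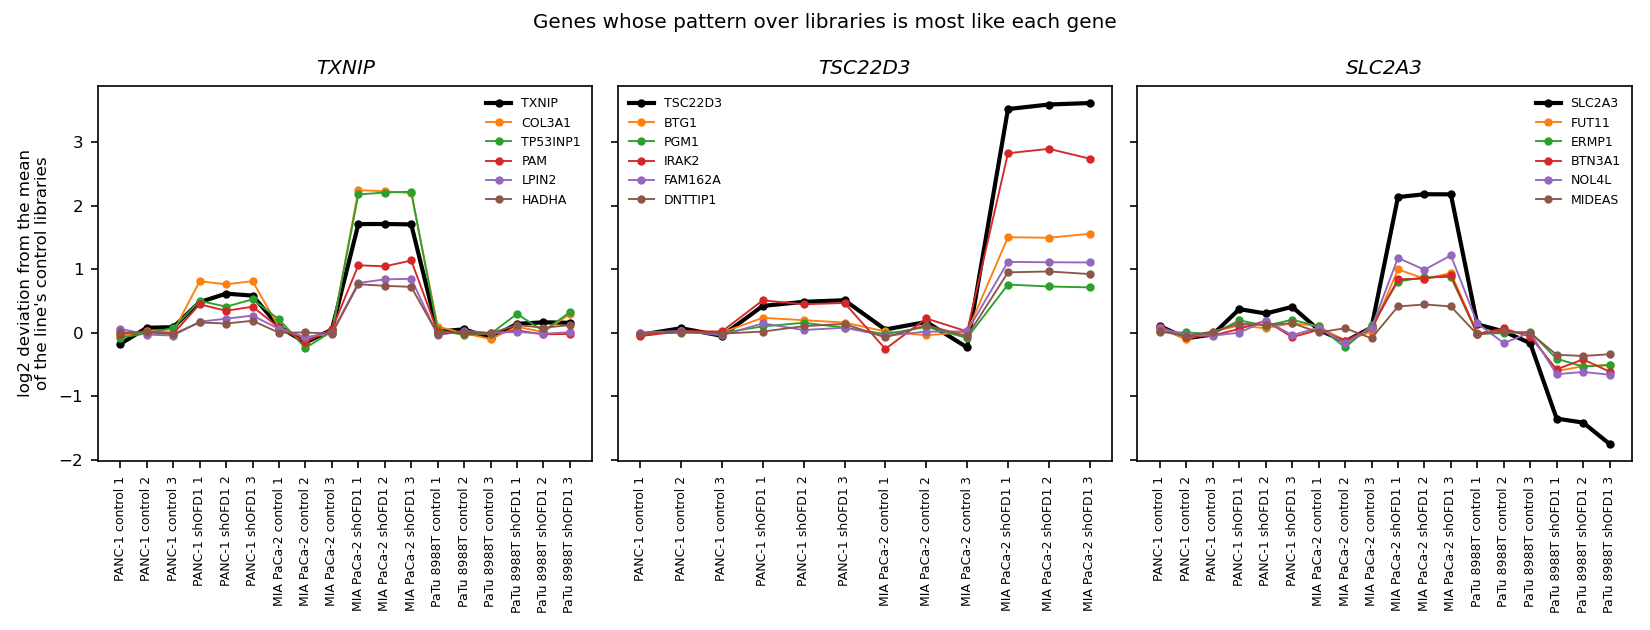
Log2 deviation from the mean of the line's control libraries (vertical axis) in each library (horizontal axis) for TXNIP, TSC22D3 and SLC2A3 (black) and the 5 genes most like each (coloured). The 3 MIA PaCa-2 shOFD1 libraries rise furthest in each panel, and the SLC2A3 panel also falls in the 3 PaTu 8988T shOFD1 libraries.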

How the data were processed

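RNA-seq of 18 libraries was analysed from 1 deposited table of FPKM values, which the authors made, per the study's methods, with HISAT2 for mapping and HTSeq-count for counting, before scaling by gene length and reads. The labels name hg38 and, beside it, mouse builds. The kits named in the labels and in the methods differ, and strandedness was not given in the sources used here. Whole reads and gene lengths were recovered from the steps of the FPKM values (within 0.01 reads) for all 16308, 20604 and 21498 genes above 0 in PANC-1, MIA PaCa-2 and PaTu 8988T, and served to show depth only.

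Within each line, genes with a mean of at least 1 FPKM over 6 libraries were fitted as log2(FPKM + 0.1) with limma 3.58.1 (R 4.3.3, lmFit and eBayes with a variance trend), and p-values were adjusted by Benjamini-Hochberg over all genes of the line. The threshold was an adjusted p below 0.05 with a fold change above 2 or below 0.5. Fold changes on this scale understate those of low genes. The fit was tested on simulated data. A two-sided exact permutation test of a single gene could not give a p below 0.1 with groups of 3. Alternatives were other pseudocounts, filters and scalings, a replicate block, no variance trend, leaving out each library, and adjusted p alone.

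The 10 genes and the lists were chosen with earlier results of these data known. The named genes were the 10, OFD1, SLC2A14, SESN2, MLXIPL, for each list the genes past the threshold in PANC-1 or PaTu 8988T (at most 3 a line), and the 5 most alike for TXNIP, TSC22D3 and SLC2A3. Genes of the lists named for MIA PaCa-2 were those past 2-fold and were named after their values were seen. Figures were drawn with matplotlib 3.10.9 in Python 3.11.15.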

Additional observations from a re-analysis of the deposited data

Results flagged for a closer look

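Of the 5 genes tested in both lines, 4 had a change that differed between PANC-1 and PaTu 8988T by the interaction term in limma (12 libraries). Among all 9593 genes, 28.7% had a larger and 28.0% a smaller change in PANC-1, so that such a difference was common. The log2 fold change in PANC-1 exceeded that in PaTu 8988T by 1.87 for SLC2A3 (0.36 against -1.502), by 1.12 for SESN1 (1.25 against 0.13), by 0.75 for ARRDC3 (0.22 against -0.53) and by 0.41 for TXNIP (0.56 against 0.16). All 4 stayed past an adjusted p of 0.05 in every alternative fit in which they were tested.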

How the results depend on the processing

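The numbers of genes past the threshold were compared over the alternatives. At an adjusted p alone, 8 genes of the group passed in PANC-1 and 3 in PaTu 8988T, and 71 and 48 of the listed genes, against 3, 1, 4 and 2 with the fold limit. Of all genes, 40.1% were higher and 32.2% lower in PANC-1 at an adjusted p alone, and 20.9% and 18.5% in PaTu 8988T. With a filter of 5 FPKM, 0 genes of the group passed in PaTu 8988T, where SLC2A3 was no longer tested, and 2 of 3 tested genes differed between PANC-1 and PaTu 8988T. Without a filter, 7 of 10 differed, 6 with a larger and 1 with a smaller change in PANC-1. The share of all genes that differed was not taken at either of these settings. The median log2 fold change of the group in MIA PaCa-2 was 1.51, 1.07 with a pseudocount of 1 and 1.71 with a filter of 5 FPKM. MLXIP in PANC-1, at 0.00, turned to -0.0505 with median-of-ratios scaling and -7.20e-04 with quantile normalization, and it lay between -0.0212 (without control replicate 2) and 0.0141 (without shOFD1 replicate 2) with 1 library left out, never past the test. A pseudocount of 1 took FBXO32 in PANC-1 to -0.9996 and OFD1 to -0.86 in PANC-1 and -0.68 in PaTu 8988T, short of the fold limit, as did leaving out PANC-1 shOFD1 replicate 2 (-0.99) or quantile normalization in PaTu 8988T (-0.97) for OFD1.

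Leaving out 1 library at a time, the group's count stayed at 3 in PANC-1, 1 in PaTu 8988T and 4 for the difference between them. The listed genes went from 4 to 5 in PANC-1 and from 1 to 2 in PaTu 8988T, where DDIT4 was lost without shOFD1 replicate 1. The MIA PaCa-2 median lay between 1.41 (without control replicate 2) and 1.58. Same-numbered libraries did not deviate together (correlations from -0.11 to 0.13), and not every library correlated best with its own number, so the replicate numbers do not pair the samples. With a replicate block, 3 genes of the group passed in PANC-1 and 1 in PaTu 8988T, and 4 differed between them, and the block changed no call. Shallow counts limited TSC22D3 in PaTu 8988T and SESN3 in PANC-1. In MIA PaCa-2, 7 values of single genes moved by more than 1 SD and kept their sign: with a pseudocount of 1 TSC22D3, KLF9, PIK3IP1 and SESN1 became smaller, and TSC22D3 with a pseudocount of 0.01 and SLC2A3 and TXNIP with quantile normalization became larger. In PANC-1, 2 rather than 3 genes of the group passed with a filter of 5 FPKM, where PIK3IP1 was not tested, and the listed genes went from 4 to 3 with that filter or a pseudocount of 1 and to 5 without a filter. The other counts and medians stayed within 1.5 times or the spread between replicates, and the other tested single genes kept their direction and their side of the threshold.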
